A study of Mus musculus with 12 samples.

Results

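DNA replication genes encode the proteins that copy the genome once per cell division. The 41 genes described here were chosen by their symbols from that pathway, and they cover origin licensing, helicase activation, the DNA polymerases, the accessory proteins of the fork, nucleotide supply, G1/S regulators and the copying of chromatin. All 41 of 41 were found among the 23420 gene rows of the count table. All 41 were also among the 11806 genes with enough reads to test, and the lowest count of any of them in a library was 49, for Orc1.

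The libraries are bulk RNA-seq of macrophages sorted from bone marrow nucleated cells of C57BL/6 mice, kept on a C57BL/6J background. The treated bone was the tibia, which had received mesenchymal stromal cells (MSCs, the fibroblast-like supporting cells of the marrow), and the labels call its cells MSC-educated macrophages. The comparison bone was the untreated femur of the same animal. There were 2 mice, numbered 7 and 19, and 3 libraries from each bone of each mouse, which gives 4 groups and 12 libraries. The sources used here do not give the animals' age, any genetic alteration, whether they carried leukaemia, or when and how MSCs were applied. Since MSCs were given to tibias and the controls were femurs, the treatment and the bone cannot be told apart. Nothing in the labels says whether the 3 libraries of a bone came from separate sorts, so p-values measure the spread between libraries, which may be technical, and a comparison within 1 mouse describes that animal.

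Before S phase, the origin recognition complex, Cdc6 and Cdt1 load rings of the minichromosome maintenance (Mcm) proteins onto DNA as inactive helicases. Kinases, Cdc45 and the GINS complex then switch the helicase on, and polymerases, the sliding clamp and its loader, single-strand binding proteins, nucleases and ligase copy both strands behind it. Many of these genes are transcribed together at the G1/S transition under E2F factors. Macrophage precursors in the marrow divide, while mature macrophages largely do not.

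Since E2F factors are the shared regulators named in textbooks for this pathway, the promoters of the members were searched for E2F words. The words were TTTCCCGC, TTTCGCGC, TTTGCCGC and TTTGGCGC, each on both strands, with words that overlap each other all counted. RefSeq promoter sequence (GRCm38.p6, 250 bases before to 50 bases after a start site) was at hand for 33 of 41 members. An E2F word was present for 13 of these 33 (39.4%), against 2.6% of 27025 genes with promoters of the same length. Among origin licensing genes it was present for 7 of 9. The letters CCAAT, in either orientation, were found for 20 of 33 members (60.6%) and for 41.1% of all genes. For both searches, all genes means the 27025, which were not limited to those tested here and not matched for base composition. The promoters of Gins1, Gins2, Gins4, Mcm4, Prim2, Pole, Rfc2 and Ccne2 were not used here. Stretches of 60 bases upstream of 3 members are printed to show the words in their setting, 5′ to 3′ on the gene's strand, with the letters of E2F words in capitals. They are 2 licensing genes and a polymerase gene, and in Mcm6 and Mcm5 a pair of words overlaps in opposite orientations. The stretch of Mcm6 lies at chr1:128359780-128359839 on the minus strand, from position -134 to -75 relative to the start site. That of Mcm5 is chr8:75109332-75109391 on the plus strand, from -177 to -118. That of Pola1 is chrX:93632260-93632319 on the minus strand, from -164 to -105. All 3 lie outside the gene itself and overlap no exon of the GENCODE M21 annotation.
Mcm6: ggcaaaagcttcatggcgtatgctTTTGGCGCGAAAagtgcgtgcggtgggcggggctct
Mcm5: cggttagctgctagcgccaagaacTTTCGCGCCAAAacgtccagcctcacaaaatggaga
Pola1: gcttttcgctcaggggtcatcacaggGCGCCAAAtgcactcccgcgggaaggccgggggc

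Total counts ran from 9773455 to 14869150 per library. The 15 macrophage markers of the list used here were all tested, and their summed level was 1682 to 2232 CPM (a gene's counts scaled to the size of the library). Monocyte markers summed to 16238 to 18427 CPM, and 9 genes of the mature neutrophil list to 17378 to 31428 CPM. Transcripts of that list were thus abundant in libraries labelled as macrophages, and which cells made them was not tested. T and NK cell, B cell, stromal and megakaryocyte lists each summed to at most 42.8 CPM in any library. The erythroid list summed to 68.1 to 139 CPM, although its alpha-globin genes Hba-a1 and Hba-a2 were at 0 counts in all 12 libraries. How reads that match near-identical copies were counted is not given. These 0 values therefore do not show that globin RNA was absent.

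As a group, the replication genes were lowest in the untreated femur of mouse 7. The 41 members together held 2554 to 2728 CPM in the 3 femur libraries of mouse 7 and 3169 to 3198 CPM in its 3 tibia libraries. In mouse 19 they held 3262 to 3400 CPM in the femur and 3184 to 3286 CPM in the tibia. The femur and tibia libraries of mouse 7 did not overlap, those of mouse 19 did, and 3 of the 4 groups lay close together. In bulk RNA, fewer cells of a type and less RNA per cell cannot be told apart.

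**Figure D1:**
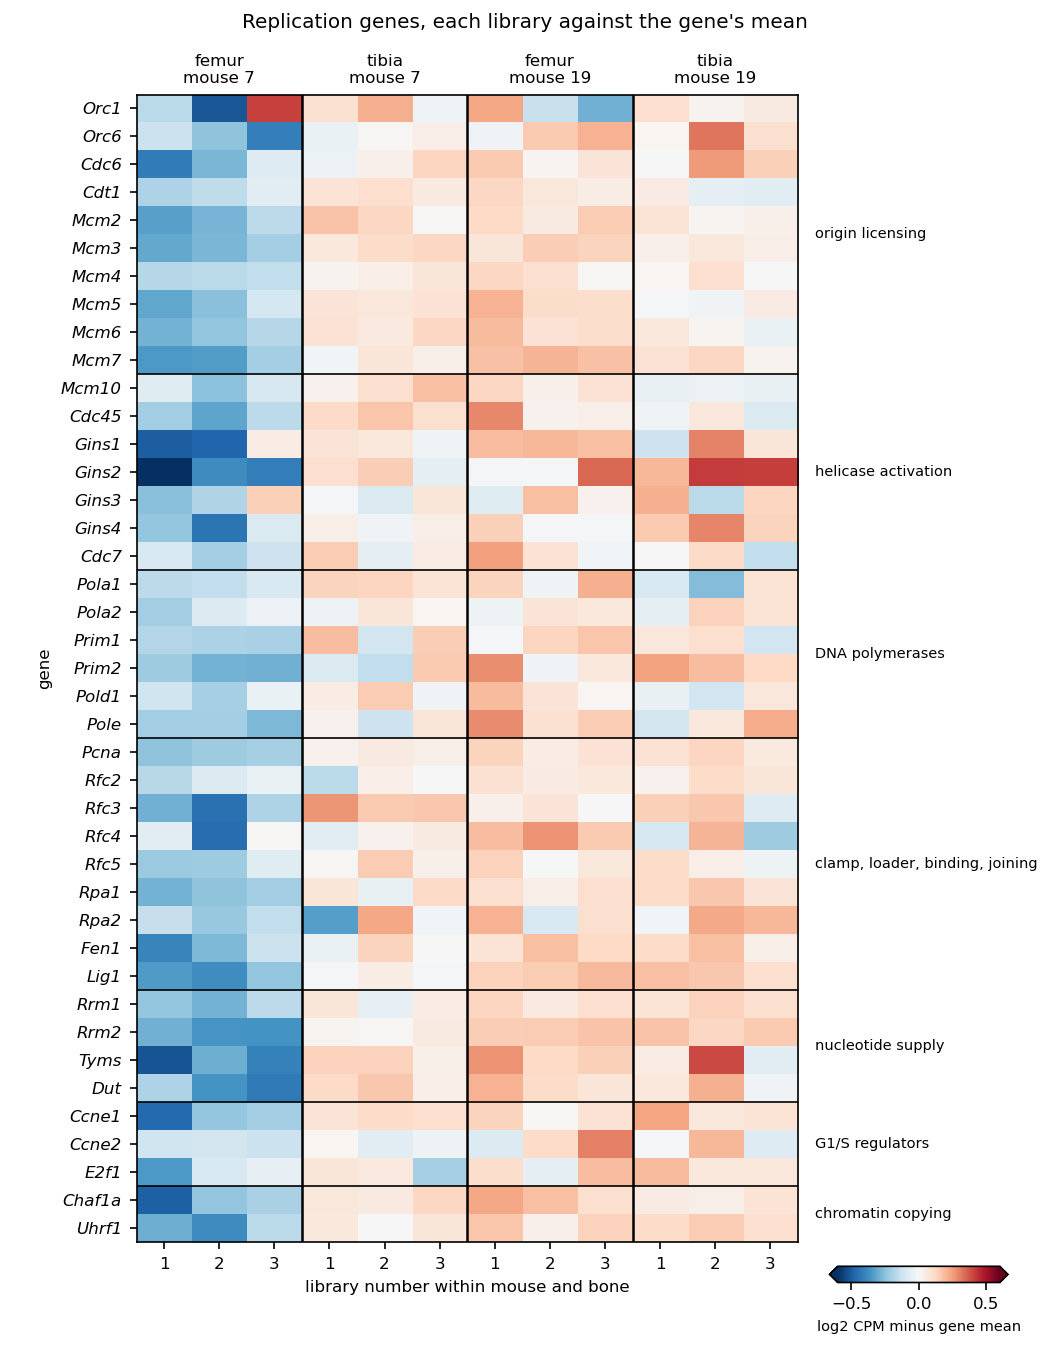
Each row is 1 of the 41 replication genes, grouped by role, and each column is 1 library; colour gives log2 CPM minus the gene's mean over the 12 libraries, from blue (lower) to red (higher). The 3 femur libraries of mouse 7 at the left are blue for most genes, and the other 9 columns are mostly near the mean or above it.

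Over both mice, 5 of 41 members rose in the treated tibia, against 3.51% of all genes tested, and 0 fell, against 3.69% (edgeR's quasi-likelihood test with the mouse as a term, Benjamini-Hochberg adjusted p under 0.05 over all genes). At an unadjusted p under 0.05 the counts were 17 higher and 0 lower, and DESeq2 called 9 and 0. Here and below, the share of all genes at an unadjusted p or with DESeq2 was not counted. Such counts therefore cannot be set against all genes. The 5 were the GINS subunits Gins2 and Gins4, the large subunit of the single-strand binding protein Rpa1, the ribonucleotide reductase subunit Rrm2 and cyclin E1 (Ccne1). The median log2 change of the 41 members was 0.11, against -0.0021 for all genes, and 40 of 41 values were above 0. When the 3 libraries of each bone were added up, so that animals and not libraries were compared, 0 members passed in either direction (0.407% of genes higher and 0.144% lower), with 8 higher and 0 lower at an unadjusted p under 0.05.

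Gins2 read 7.31, 9.47 and 9.24 CPM in the femur of mouse 7 and 13.2, 13.6 and 11.8 in its tibia. In mouse 19 it read 12.2, 12.2 and 15.6 CPM in the femur and 14.1, 16.5 and 16.4 in the tibia. The bones did not overlap in mouse 7 and overlapped in mouse 19. Its log2 change over both mice was 0.39 ± 0.10 (SE; edgeR adjusted p = 0.022, and 0.29 on sums per animal), the largest of the 41.

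Gins4 read 29.4, 25.5 and 32.5 CPM in the femur of mouse 7 against 35.4, 34.0 and 35.5 in the tibia, and 38.1, 34.3 and 34.3 against 38.5, 42.4 and 38.0 in mouse 19. Tibia values lay above all femur values in mouse 7, while the lowest tibia value of mouse 19 lay just under its highest femur value. The log2 change was 0.21 ± 0.06 (SE; edgeR adjusted p = 0.036, and 0.35 on sums).

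Rpa1 read 103, 106 and 109 CPM in the femur of mouse 7 and 132, 121 and 136 in its tibia. In mouse 19 the values were 134, 129 and 135 CPM in the femur and 136, 140.5 and 132 in the tibia. Only the femur of mouse 7 stood apart for this gene. Over both mice its log2 change was 0.17 ± 0.05 (SE; edgeR adjusted p = 0.027, and 0.42 on sums).

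Rrm2 read 157, 150.2 and 149.6 CPM in the femur of mouse 7 and 194, 193 and 199 in the tibia. The 6 libraries of mouse 19 lay between 209 and 216 CPM with both bones intermixed. The log2 change over both mice was 0.18 ± 0.05 (SE; edgeR adjusted p = 0.028, and 0.46 on sums). Ccne1 read 22.1, 25.9 and 26.5 CPM in the femur of mouse 7, 32.1, 32.9 and 32.7 in its tibia, 33.4, 30.6 and 32.4 in the femur of mouse 19, and 35.8, 31.9 and 32.2 in the tibia of mouse 19. Here too the femur of mouse 7 was the group that stood apart, and the log2 change was 0.22 ± 0.07 (SE; edgeR adjusted p = 0.049, and 0.42 on sums).

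In GRCm38 (GENCODE M21) Gins2 lies on chromosome 8 from 120578633 to 120589304, Gins4 on chromosome 8 from 23226616 to 23237659 and Rpa1 on chromosome 11 from 75298166 to 75348324. Rrm2 lies on chromosome 12 from 24708241 to 24714146 and Ccne1 on chromosome 7 from 38097984 to 38107534. Each value covers a whole gene, with no division by exon or transcript.

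None of these 5 calls was kept in every fit that left out 1 library. The count of members that rose was 0 without femur library 1 of mouse 7, 1 without its femur library 2 or any of its 3 tibia libraries, and 2 without its femur library 3. It was 3 without femur library 2 of mouse 19, 8 without that mouse's femur library 3 or tibia library 1, 9 without its femur library 1 and 12 without its tibia library 3.

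Within mouse 7, 27 of 41 members rose in the tibia, against 4.37% of all genes tested, and 0 fell, against 5.36%. The median log2 change of the members was 0.26, against -0.0072 for all genes, and all 41 values were above 0, from 0.06 (Rfc2) to 0.57 (Gins2). In 34 of 41 members the 3 tibia libraries lay above all 3 femur libraries, which held for 12.2% of all genes tested, and in 0 of 41 they lay below them, against 14.4%. The 7 members whose bones overlapped in mouse 7 were Orc1, Gins1, Gins3, Rfc2, Rfc4, Rpa2 and E2f1.

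Within mouse 19, 0 of 41 members rose (2.96% of all genes did) and 0 fell (2.21% did); at an unadjusted p under 0.05 the counts were 0 and 5, and DESeq2 called 0 and 0. The median log2 change was -0.02, against 0.00093 for all genes, with 17 of 41 values above 0 and a range from -0.23 (Rfc4) to 0.22 (Gins2). The lowest adjusted p was 0.106, for Mcm5. Tibia libraries lay above all femur libraries in 0 of 41 members (10.8% of all genes) and below all of them in 6 (10.3%). The count of 6 is near that share of all genes. The 6 were Mcm3, Mcm5, Mcm6, Mcm7, Mcm10 and Chaf1a, named after their values were seen. Without tibia library 3 of mouse 19, 1 member fell.

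**Figure D2:**
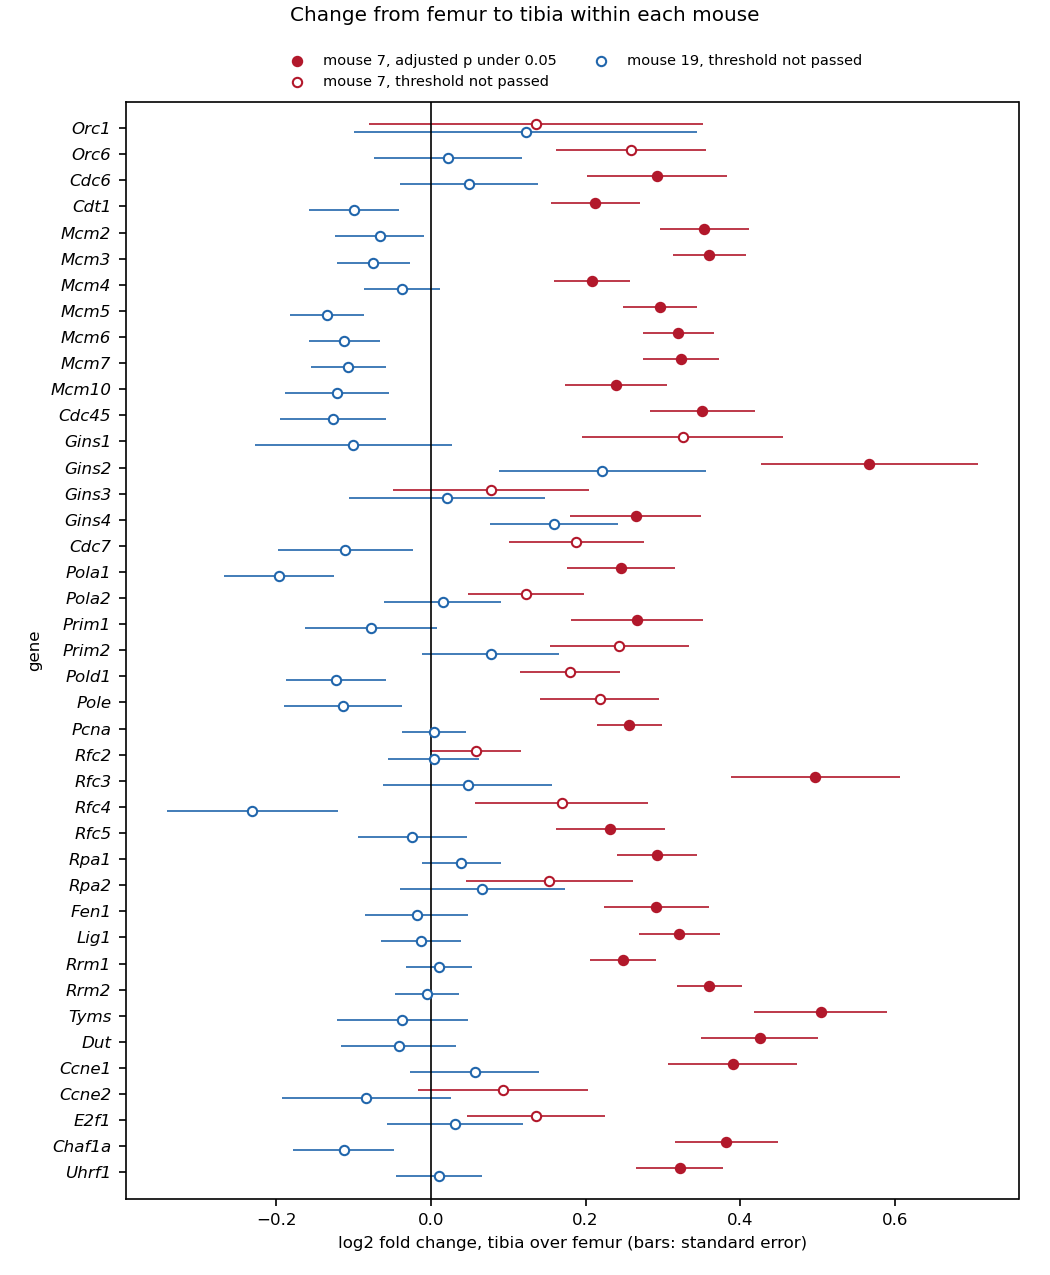
Points give the log2 fold change of tibia over femur for each of the 41 genes, red for mouse 7 and blue for mouse 19, with bars for 1 standard error; filled points passed the test at an adjusted p under 0.05. The red points all lie above 0 and 27 are filled, while the blue points lie on both sides of 0 and all are open.

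The test of the difference itself found 19 of 41 members with a larger change in mouse 7 than in mouse 19, against 1.85% of all genes, and 0 with a smaller one, against 2.89%. DESeq2 called 21 and 0. The 19 were Cdt1, Mcm2, Mcm3, Mcm4, Mcm5, Mcm6, Mcm7, Mcm10, Cdc45, Pola1, Pcna, Rpa1, Lig1, Rrm1, Rrm2, Tyms, Dut, Chaf1a and Uhrf1. The median difference over all 41 was 0.31 on the log2 scale, against -0.0068 for all genes. These values share the femur libraries of mouse 7 with the comparison within that mouse and with the comparison of the femurs, so they are not separate evidence.

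**Figure D3:**
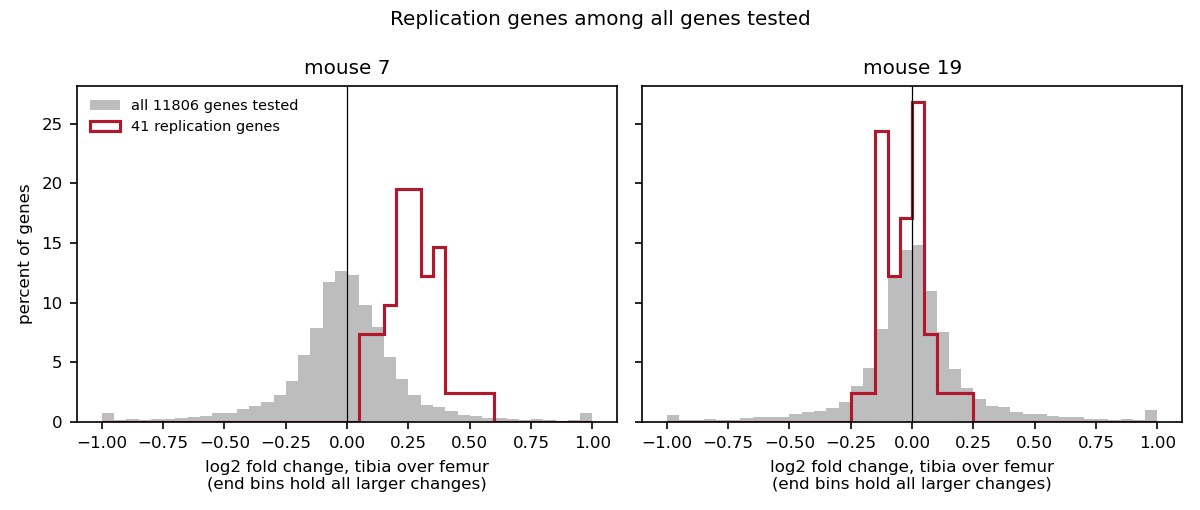
Histograms of the log2 fold change of tibia over femur, in percent of genes, for all 11806 genes tested (grey) and the 41 replication genes (red outline), in mouse 7 at the left and mouse 19 at the right. The outline lies wholly above 0 in mouse 7, with a median of 0.26, and straddles 0 in mouse 19, with a median of -0.02.

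The untreated femurs differed between the animals. In the femur of mouse 19, 35 of 41 members were higher than in the femur of mouse 7, against 14.1% of all genes, and 0 were lower, against 14.3%; the 6 that did not pass were Orc1, Gins3, Pola2, Rpa2, Ccne2 and E2f1. The median log2 difference was 0.34, against 0.0016 for all genes. Between the treated tibias, 1 member, Rrm2, was higher in mouse 19 (0.13 ± 0.04, SE; edgeR adjusted p = 0.040), against 7.22% of all genes, and 0 were lower, against 6.77%. At an unadjusted p under 0.05 the tibias gave 5 higher and 2 lower, and DESeq2 called 1 and 0. The median between the tibias was 0.04, against -0.0014 for all genes. The Rrm2 call between the tibias was lost without any 1 of the 6 tibia libraries or of the 3 femur libraries of mouse 19, with adjusted p up to 0.148. For 29 of 41 members the 3 femur libraries of mouse 7 lay below all 9 other libraries, which held for 6.32% of all genes.

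Origin licensing genes held 851 to 931 CPM in the femur of mouse 7, 1080 to 1094 in its tibia, 1118 to 1151 in the femur of mouse 19 and 1049 to 1076 in the tibia of mouse 19. Of the 10 members, 8 rose in mouse 7 (4.37% of all genes did), 0 in mouse 19 (2.96%) and 0 over both mice (3.51%). A larger change in mouse 7 than in mouse 19 was called for 7 (1.85% of all genes). These shares of all genes apply to the role groups below as well, and in groups this small a count of 0 is near them. Mcm5, a subunit of the Mcm ring and the most abundant of the group, read 167, 175 and 193 CPM in the femur of mouse 7 and 219, 217 and 220.2 in its tibia, then 239.8, 224 and 223 in the femur of mouse 19 and 206, 205 and 215 in the tibia. The order of the bones was opposite in the 2 animals, without overlap in either, but the change in mouse 19 did not pass the test. Its log2 change was 0.30 ± 0.05 in mouse 7 (SE; edgeR adjusted p = 1.1e-04) and -0.13 ± 0.05 in mouse 19 (adjusted p = 0.106), a difference of 0.43 ± 0.07 (adjusted p = 1.1e-04).

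All 6 subunits of the Mcm ring, Mcm2 to Mcm7, rose in mouse 7, from 0.21 (Mcm4) to 0.36 (Mcm3), and all 6 had a larger change there than in mouse 19, where their log2 values ran from -0.13 (Mcm5) to -0.04 (Mcm4). The licensing factor Cdt1 rose by 0.21 ± 0.06 (SE) in mouse 7 and the loader Cdc6 by 0.29 ± 0.09. The remaining members of the group were the origin recognition subunits: Orc6 at 0.26 ± 0.10 (SE; adjusted p = 0.095) and Orc1 at 0.14 ± 0.22 (adjusted p = 0.77) did not pass. Orc1 had the lowest level of the 41, with 3.44 to 6.51 CPM in the femur of mouse 7, and its libraries there spanned those of every other group.

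Helicase activation genes held 178 to 205 CPM in the femur of mouse 7, 230.4 to 233 in its tibia, 228 to 249 in the femur of mouse 19 and 222 to 239 in the tibia of mouse 19. Of the 7 members, 4 rose in mouse 7 (Mcm10, Cdc45, Gins2 and Gins4), 2 over both mice (Gins2 and Gins4) and 0 in mouse 19. Cdc45, which joins the Mcm ring and GINS in the active helicase, read 52.4, 48.7 and 54.3 CPM in the femur of mouse 7 and 65.6, 68.0 and 64.7 in its tibia. In mouse 19 it read 73.9, 61.8 and 62.0 CPM in the femur and 59.8, 63.5 and 57.1 in the tibia. Tibia was above femur without overlap in mouse 7, and the bones overlapped in mouse 19. The log2 change was 0.35 ± 0.07 in mouse 7 (SE; edgeR adjusted p = 9.7e-04) and -0.13 ± 0.07 in mouse 19 (0.35), and the difference was 0.48 ± 0.10 (0.0020).

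Mcm10, a scaffold that binds the helicase, rose by 0.24 ± 0.07 (SE) in mouse 7 and also differed between the animals, by 0.36 ± 0.09. The GINS subunits Gins2 and Gins4 passed within mouse 7, at 0.57 ± 0.14 and 0.26 ± 0.08. Their changes in mouse 19 were 0.22 ± 0.13 and 0.16 ± 0.08, and the differences between the animals were 0.35 ± 0.19 (adjusted p = 0.42) and 0.11 ± 0.12 (0.76), so no difference was shown. Gins1 at 0.33 ± 0.13 (adjusted p = 0.12), Gins3 at 0.08 ± 0.13 (0.78) and the kinase Cdc7 at 0.19 ± 0.09 (0.19) did not pass in mouse 7.

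DNA polymerase genes held 258 to 268 CPM in the femur of mouse 7, 299.7 to 306 in its tibia, 304 to 327 in the femur of mouse 19 and 289 to 311 in the tibia of mouse 19. Of the 6 members, 2 rose in mouse 7: Pola1, the catalytic subunit of the polymerase that starts new strands (0.25 ± 0.07, SE), and Prim1, the primase that makes its RNA primer (0.27 ± 0.08). Pola1 was at -0.20 ± 0.07 in mouse 19 (edgeR adjusted p = 0.11) and differed between the animals by 0.44 ± 0.10 (0.0063). Pold1, the catalytic subunit of the lagging-strand polymerase and the most abundant of the group, read 69.0, 65.1 and 72.8 CPM in the femur of mouse 7 and 77.3, 83.2 and 73.8 in its tibia. It read 85.5, 78.9 and 75.4 CPM in the femur of mouse 19 and 72.5, 69.0 and 78.4 in the tibia. Its bones did not overlap in mouse 7, yet its log2 change of 0.18 ± 0.06 missed the threshold there (0.080), as did the difference between the animals, 0.30 ± 0.09 (0.054). Pole, which copies the leading strand, was at 0.22 ± 0.08 in mouse 7 (0.072), Prim2 at 0.24 ± 0.09 (0.089) and Pola2 at 0.12 ± 0.08 (0.35).

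Clamp, clamp loader, single-strand binding and strand joining genes held 584 to 624 CPM in the femur of mouse 7, 693 to 726 in its tibia, 735 to 758 in the femur of mouse 19 and 726 to 772 in the tibia of mouse 19. Of the 9 members, 6 rose in mouse 7 (Pcna, Rfc3, Rfc5, Rpa1, Fen1 and Lig1), 1 over both mice and 0 in mouse 19. Pcna, the sliding clamp, read 170.1, 173 and 175 CPM in the femur of mouse 7 and 205, 209 and 206 in its tibia. In mouse 19 the values were 220.1, 207 and 213 CPM in the femur and 213, 219.7 and 209 in the tibia. The 3 femur libraries of mouse 7 lay apart from the other 9, which lay between 205 and 220.1 CPM. Its log2 change was 0.26 ± 0.04 in mouse 7 (SE; edgeR adjusted p = 1.2e-04) and 0.00 ± 0.04 in mouse 19 (0.98), and the difference was 0.25 ± 0.06 (0.0084).

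Rfc3, a subunit of the complex that loads the clamp, read 13.7, 12.3 and 14.7 CPM in the femur of mouse 7 and 20.1, 18.6 and 18.7 in its tibia, then 17.1, 17.6 and 16.7 in the femur of mouse 19 and 18.5, 18.7 and 15.8 in the tibia. Its log2 change of 0.50 ± 0.11 (SE) in mouse 7 passed (edgeR adjusted p = 0.0032), while the difference from mouse 19, 0.45 ± 0.15, did not (0.10). Rfc5 rose by 0.23 ± 0.07 in mouse 7, and the loader subunits Rfc2 (0.06 ± 0.06) and Rfc4 (0.17 ± 0.11) did not pass. Lig1, the ligase that joins lagging-strand fragments, rose by 0.32 ± 0.05 in mouse 7 and Fen1, the nuclease that trims them, by 0.29 ± 0.07. Lig1 also differed between the animals (0.33 ± 0.07, adjusted p = 0.0048), and Fen1 did not pass that test (0.31 ± 0.09, 0.056). Rpa1 rose by 0.29 ± 0.05 in mouse 7, and Rpa2, the middle subunit of the same complex, was at 0.15 ± 0.11 (0.43).

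Nucleotide supply genes rose in mouse 7 in 4 of 4 cases and differed between the animals in 4 of 4. The group held 451 to 466 CPM in the femur of mouse 7, 564 to 586 in its tibia, 602 to 624 in the femur of mouse 19 and 599 to 629 in the tibia of mouse 19. Rrm1, the large subunit of ribonucleotide reductase, had the highest CPM of the 41 genes: 232, 224 and 245 in the femur of mouse 7, 287, 264 and 282 in its tibia, 298, 284 and 292 in the femur of mouse 19, and 289, 300.3 and 292 in the tibia of mouse 19. Femur libraries of mouse 7 were again below all others. The log2 change of Rrm1 was 0.25 ± 0.04 in mouse 7 (SE; edgeR adjusted p = 2.0e-04) and 0.01 ± 0.04 in mouse 19 (0.94). Rrm2, the small subunit, rose by 0.36 ± 0.04 in mouse 7 (9.2e-07) and was at -0.01 ± 0.04 in mouse 19 (0.97).

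Tyms, thymidylate synthase, read 35.8, 41.9 and 38.7 CPM in the femur of mouse 7 and 56.3, 56.4 and 52.5 in its tibia. In mouse 19 it read 61.7, 55.6 and 56.5 CPM in the femur and 52.9, 67.4 and 49.0 in the tibia, where the libraries were the most spread of the 4 groups. Its difference between the animals was the largest of the 41, at 0.54 ± 0.12 (SE; edgeR adjusted p = 0.0056), made of 0.50 ± 0.09 in mouse 7 and -0.04 ± 0.08 in mouse 19. A processed copy, Tyms-ps, has a row of its own with 0 to 3 counts per library, so few reads were assigned to it. Dut, the enzyme that keeps uracil out of DNA, read 39.6, 35.1 and 33.6 CPM in the femur of mouse 7, 48.7, 50.4 and 46.3 in its tibia, 51.9, 48.6 and 47.4 in the femur of mouse 19 and 47.0, 52.2 and 44.3 in the tibia of mouse 19. It rose by 0.43 ± 0.08 in mouse 7 (adjusted p = 3.4e-04) and differed between the animals by 0.47 ± 0.11 (0.0066).

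G1/S regulators held 66.5 to 77.0 CPM in the femur of mouse 7, 81.1 to 87.3 in its tibia, 83.8 to 94.7 in the femur of mouse 19 and 86.3 to 93.9 in the tibia of mouse 19. Of the 3 members, Ccne1 rose in mouse 7, by 0.39 ± 0.08 (SE; edgeR adjusted p = 0.0027), and 0 differed between the animals. E2f1, a transcription factor that activates this pathway, read 27.8, 33.1 and 34.2 CPM in the femur of mouse 7, 37.1, 36.8 and 30.8 in its tibia, 37.9, 33.9 and 40.2 in the femur of mouse 19 and 40.2, 36.9 and 37.1 in the tibia of mouse 19. Its groups overlapped in both animals, and its log2 change in mouse 7, 0.14 ± 0.09 (0.39), did not pass. Ccne2, the other cyclin E, was at 0.09 ± 0.11 (0.68).

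Both genes of chromatin copying rose in mouse 7 and differed between the animals. Chaf1a, the large subunit of the histone chaperone CAF-1, read 46.8, 55.8 and 57.5 CPM in the femur of mouse 7 and 68.9, 68.3 and 71.6 in its tibia, then 77.2, 74.4 and 70.3 in the femur of mouse 19 and 68.0, 67.4 and 69.5 in the tibia. The bones separated in both animals, in opposite order, but the change in mouse 19 did not pass the test. The log2 change was 0.38 ± 0.07 in mouse 7 (SE; edgeR adjusted p = 2.5e-04) and -0.11 ± 0.07 in mouse 19 (0.40), and the difference was 0.50 ± 0.09 (9.5e-04). Uhrf1, which brings the maintenance DNA methyltransferase to new DNA, read 91.5, 86.0 and 99.97 CPM in the femur of mouse 7, 117, 112 and 118 in its tibia, 126, 114 and 123 in the femur of mouse 19 and 121, 124 and 120.1 in the tibia of mouse 19. It rose by 0.32 ± 0.06 in mouse 7 (2.9e-04), was at 0.01 ± 0.06 in mouse 19 (0.96) and differed by 0.31 ± 0.08 (0.016).

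Of the 27 calls in mouse 7, 18 were kept without any 1 library. The other 9 were Cdc6, Cdt1, Mcm10, Gins2, Gins4, Pola1, Prim1, Rfc5 and Fen1, whose highest adjusted p in such a fit ran from 0.0574 (Fen1) to 0.284 (Gins4, without femur library 2 of mouse 7). The libraries that ended them were the 6 of mouse 7 and, for Gins4 and Prim1, femur library 2 of mouse 19. Gins2 was lost without femur library 1 of mouse 7 alone, at 0.0672. Of the 19 differences between the animals, 13 were kept; Cdt1, Mcm4, Mcm10, Rpa1, Rrm1 and Uhrf1 were lost without at least 1 library, with adjusted p up to 0.142 (Rpa1). Of the 35 differences between the femurs, 24 were kept, and the others reached at most 0.185 (Cdc7).

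The levels were also divided by the joined length of all annotated exons of the gene, over every transcript form. This length can exceed that of the transcripts in these cells, which would lower the value. So divided, the members spanned from 1.43 CPM per kb (Orc1) to 84.0 (Pcna), with a median of 11.5, over all 12 libraries. After Pcna came Rrm2 at 69.9, Mcm5 at 52.3, Mcm6 at 38.8 and Mcm3 at 38.1 CPM per kb. The Mcm ring subunits, which act in equal numbers in the ring, ranged from 13.9 (Mcm2) to 52.3 CPM per kb (Mcm5). Their joined exon lengths differed, from 3589 bases (Mcm4) to 6956 (Mcm2), and in CPM alone they ranged from 97.0 (Mcm2) to 209 (Mcm5). How much of the range comes from the lengths was not tested. Of the members called in mouse 7 with a promoter entry, 10 of 24 (41.7%) held an E2F word. Of those not called 3 of 9 (33.3%) did, namely Orc1, Gins3 and Pold1. Mcm6, Mcm5 and Pola1, whose stretches are printed above, were picked from a larger set and were all called in mouse 7. A link between word and change was not tested.

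Other genes of the same pathway were taken from a list of 68, all of which were tested. In mouse 7, 18 rose, against 4.37% of all genes tested, and 3 fell, against 5.36%. In mouse 19, 0 rose (2.96% of all genes) and 5 fell (2.21%). A larger change in mouse 7 was called for 12 (1.85% of all genes) and a smaller one for 2 (2.89%). Between the untreated femurs 33 were higher in mouse 19 (14.1% of all genes) and 5 lower (14.3%). Over both mice 3 rose and 2 fell, which is near the share of all genes, 3.51% and 3.69%, as is the count of 3 that fell in mouse 7. Gmnn, geminin, the inhibitor of Cdt1, rose by 0.20 ± 0.05 (SE; edgeR adjusted p = 0.022), Nasp, a histone chaperone, by 0.18 ± 0.05 (0.023) and Cdkn1a, the cyclin-dependent kinase inhibitor p21, by 0.21 ± 0.06 (0.036). Ccnd2, cyclin D2, fell in both animals, with a log2 change of -0.49 ± 0.09 over both (SE; adjusted p = 7.7e-04), going from 19.1 ± 2.7 to 14.1 ± 1.1 CPM in mouse 7 and from 28.5 ± 1.4 to 19.6 ± 3.4 CPM in mouse 19 (SD, n = 3 libraries). Samhd1, a phosphohydrolase that breaks down deoxynucleotides, fell by 0.13 (SE 0.03, adjusted p = 0.028), with -0.25 in mouse 7 and -0.00 in mouse 19.

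Mitosis genes, 38 of 38 tested, had a like split between the animals. In mouse 7, 20 rose (4.37% of all genes tested) and 0 fell (5.36%), and in mouse 19, 0 rose (2.96%) and 8 fell (2.21%). A larger change in mouse 7 was called for 22 (1.85%) and a smaller one for 0 (2.89%), and over both mice 0 rose (3.51%) and 0 fell (3.69%). Between the untreated femurs, 37 were higher in mouse 19 (14.1%) and 0 lower (14.3%), with a median log2 difference of 0.32. Between the treated tibias, 3 were higher in mouse 19 (7.22%) and 1 lower (6.77%), which is near the share of all genes. They summed to 6776 to 6935 CPM in the femur of mouse 7, 7452 to 7750 in its tibia, 8289 to 8406 in the femur of mouse 19 and 7537 to 7851 in the tibia of mouse 19. Unlike the sum of all 41 replication genes, the mitosis genes of mouse 19 were lower in the tibia without overlap. So were the summed origin licensing genes of mouse 19, at 1049 to 1076 CPM in the tibia and 1118 to 1151 in the femur. The sums of the other role groups overlapped between the bones of mouse 19.

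Markers of macrophages and of other marrow cells were summed in the same 4 groups, and their order differed from list to list. Granulocyte precursor genes, such as the granule enzymes Elane and Mpo, summed to 914 to 987 CPM in the femur of mouse 7, 1256 to 1491 in its tibia, 1447 to 1808 in the femur of mouse 19 and 1768 to 2169 in the tibia of mouse 19. Of these 10 genes, 6 rose (4.37% of all genes tested) and 1 fell (5.36%) in mouse 7. In mouse 19, 4 rose (2.96%) and 0 fell (2.21%). Between the femurs, 9 were higher in mouse 19 than in mouse 7 (14.1%). Macrophage markers summed to 2135 to 2232 CPM in the femur of mouse 7, 2012 to 2029 in its tibia, 1682 to 1709 in the femur of mouse 19 and 1914 to 2051 in the tibia of mouse 19. For the femurs, the order of these sums is the reverse of that of the summed replication genes. The single markers were split, with 5 higher in the femur of mouse 19 (14.1% of all genes) and 5 lower (14.3%). Their median log2 difference between the femurs was -0.09. Of the 15 macrophage markers, 1 rose (4.37% of all genes) and 2 fell (5.36%) in mouse 7. In mouse 19, 8 rose (2.96%) and 0 fell (2.21%), and 7 had a smaller change in mouse 7 (2.89%).

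Mature neutrophil genes (9 tested of 10, Ly6g was not used here) summed to 17378 to 19090 and 17780 to 19233 CPM in the femur and tibia of mouse 7, and to 25819 to 29540 and 29034 to 31428 CPM in those of mouse 19. Their bones overlapped in mouse 7, where those of the summed replication genes did not. Erythroid genes summed to 68.1 to 89.4, 69.2 to 79.1, 124 to 139 and 101 to 117 CPM in the same order of groups, and stem and progenitor genes to 74.6 to 81.8, 77.3 to 85.3, 100.2 to 112 and 92.8 to 105 CPM. Monocyte markers summed to 17849 to 18427 CPM in the femur of mouse 7, 16921 to 17591 in its tibia, 17366 to 18403 in the femur of mouse 19 and 16238 to 16975 in the tibia of mouse 19, lower in the tibia without overlap in both animals. Of these 9 genes, 0 rose (4.37% of all genes) and 2 fell (5.36%) in mouse 7, and 2 rose (2.96%) and 4 fell (2.21%) in mouse 19. Dendritic cell genes summed to 81.6 to 88.0, 58.4 to 64.5, 98.2 to 103 and 75.2 to 84.4 CPM in the same order of groups, also lower in both tibias without overlap. Of these 8 genes, 0 rose (4.37% of all genes) and 2 fell (5.36%) in mouse 7, and 0 rose (2.96%) and 1 fell (2.21%) in mouse 19. In a list of 8 genes, counts of 0 and 1 are near these shares. The part of these cell types in the levels of the replication genes was not tested.

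**Figure D4:**
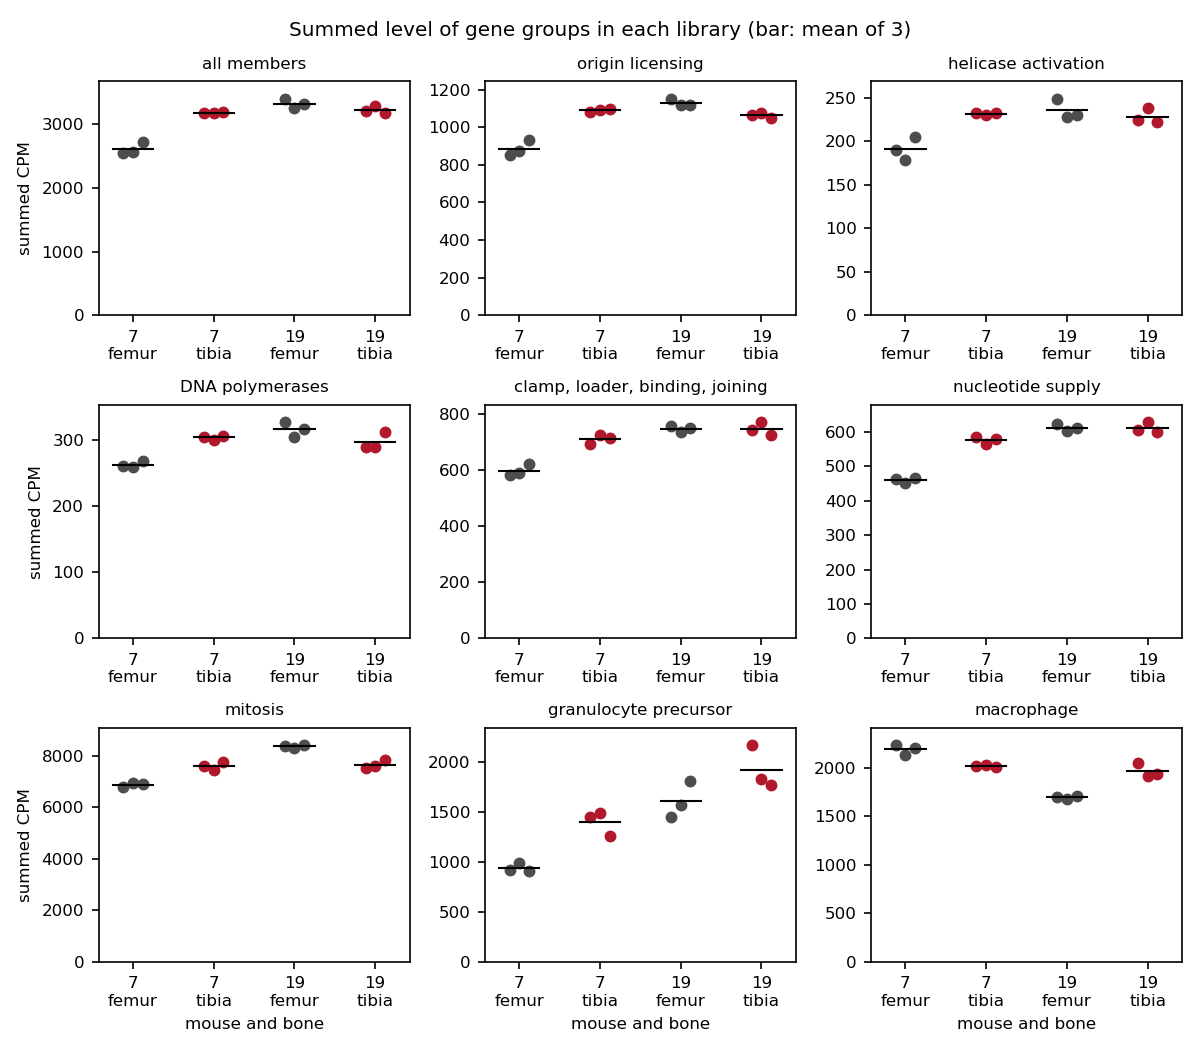
Summed CPM of gene groups in each library (points, red for tibia and grey for femur) with the mean of 3 libraries (bar), by mouse and bone; each panel starts at 0. All replication genes together lie at 2554 to 2728 in the femur of mouse 7 and at 3169 to 3400 elsewhere; granulocyte precursor genes are also lowest in the femur of mouse 7, and macrophage markers are lowest in the femur of mouse 19.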

How the data were processed

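Macrophages sorted from the tibia and femur of 2 mice were measured by bulk RNA-seq in 12 libraries. The deposited table holds raw read counts per gene, 1 column per library, with no scaling seen in the values. The submitters' processing notes list mm10 as the build and, among tools, HISAT2, bcl2fastq, Subread, featureCounts and DESeq2. Their versions, settings, strand handling and gene annotation: not given in the sources used here. As strand is unknown, reads of overlapping or antisense genes cannot be told apart. Near-identical copies, such as the pseudogenes of Pcna and Tyms, can take reads from their gene. RNA was column-purified with DNase digestion and libraries came from an mRNA-seq kit, per the labels.

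All 12 columns were matched to samples by title, and 0 were left over. Of 23420 gene rows, 16286 held a count; 27 are named as dates and were not named here. Among counts from 1 to 10, 69.8% were even, as when both ends of a fragment are counted, so a count of 0 allows up to 6 counts, or 0.404 to 0.614 CPM, for counting error only. Between libraries of 1 bone the mean chi-square per gene ran from 2.73 to 6.27, and from 1.37 to 3.13 on halved counts, where sampling noise alone gives about 1, so each was kept as a separate library.

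The tests were run with edgeR 4.0.16 in R 4.3.3 (TMM, filterByExpr at its minimum count of 10 with 4 groups, glmQLFit and glmQLFTest, two-sided), with Benjamini-Hochberg adjustment over 11806 genes and a threshold of 0.05. The comparison over both mice had the mouse as a term. Those within each mouse, of their difference, and between mice came from 1 mean per mouse and bone. The biological coefficient of variation was 6.26% and 5.51% in these models. A standard error is the absolute log2 change divided by the square root of F. The script was tested on simulated data. Alternatives were DESeq2 1.42.0, other size factors and filters, halved counts, a block, sums per animal and leaving out each library. Exon lengths came from GENCODE M21 (GRCm38) and promoters from RefSeq (GRCm38.p6).

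The members and lists were chosen with earlier results of these data known. Values in every library are given for the most abundant member of each role group, the members called over both mice and the 5 with the largest difference between mice; of the wider lists, genes called over both mice are named. The comparison of the tibias and the counts of groups that do not overlap were added after seeing the data.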

Additional observations from a re-analysis of the deposited data

Results flagged for a closer look

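In 19 members the change from femur to tibia differed between the 2 mice by a test of the difference itself (edgeR's quasi-likelihood test, adjusted p under 0.05 over all genes). As log2 change in mouse 7 minus that in mouse 19, the licensing genes gave 0.31 for Cdt1, 0.42 for Mcm2, 0.43 for Mcm3, 0.25 for Mcm4, 0.43 for Mcm5, 0.43 for Mcm6 and 0.43 for Mcm7. Helicase activation genes gave 0.36 for Mcm10 and 0.48 for Cdc45, and the polymerase gene Pola1 gave 0.44. Fork proteins gave 0.25 for Pcna, 0.25 for Rpa1 and 0.33 for Lig1. Nucleotide supply gave 0.24 for Rrm1, 0.37 for Rrm2, 0.54 for Tyms and 0.47 for Dut, and chromatin copying gave 0.50 for Chaf1a and 0.31 for Uhrf1. All 19 differences have 1 sign and share the femur libraries of mouse 7. Single libraries far from their group were not looked for, since each group has 3.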

How the results depend on the processing

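The counts within mouse 7, of the difference between mice and between the femurs stayed within 1.5 times the values given. They ran from 19 to 28 around 27, from 13 to 22 around 19 and from 27 to 36 around 35 without 1 library, and no called value changed sign. Over both mice the count of members that rose was less stable: 5 in the report, 14 with no filter, 9 with DESeq2, 8 on halved counts, 0 with no mouse term, 0 on sums per mouse and bone, and 0 to 12 without 1 library. Fewer units enter the sums; the cause of the other shifts was not tested. In mouse 19 the count that fell was 0 to 1 without 1 library. Between the tibias the count higher was 0 with no filter and 0 to 2 without 1 library, and the count lower was 1 with no filter, with a filter of 5 CPM in 3 libraries or on halved counts, and 0 to 1 without 1 library. Under all alternatives together 18 of 27 calls in mouse 7, 13 of 19 differences between mice, 24 of 35 between femurs and 0 of 5 over both mice were kept. With the library number as a replicate block, the count over both mice was 1, that in mouse 7 was 26 (Prim1 at adjusted p = 0.0577) and that of the difference was 18 (Rpa1 at 0.0519). Same-numbered libraries of the 2 bones did not deviate together over all genes tested (correlations from -0.047 to 0.00059 over 6 pairs). A shared step of preparation that touched few genes could be missed this way, so whether equal numbers pair the libraries stays unknown.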
